A study of Homo sapiens
Rattus norvegicus and Homo sapiens with 10 samples.

Results

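Cholesterol is built by a chain of enzymes whose genes are switched on together when a cell's sterol level falls, and 29 genes of that chain and its control were followed here out of 62754 in the count table. The genes were chosen by name and each matched 1 row of the table. They comprised 7 enzymes of the mevalonate arm, 11 enzymes of the squalene and sterol arm, 5 genes of the SREBP control machinery, and 6 genes that move, store or respond to sterols. RNA was sequenced from 3 recurrent tumours, 3 primary tumours, 3 tumour-free control brains and 1 culture. All tumours grew from U251N cells, a human glioblastoma line in wide use, injected into the brain of adult female RNU/RNU rats, which lack functional T cells, so that host immunity is reduced in every in vivo group. Recurrent tumours (post-LITT) had grown back after laser interstitial thermal therapy, in which a laser fibre heats the tumour under magnetic resonance imaging, primary tumours (pre-LITT) were never ablated, and the culture was an untreated in vitro reference of the same line. Control replicate 1 was a failed graft and control replicates 2 and 3 were procedural controls. Whether every library is a separate animal is not stated in the labels, so the p-values measure the spread between these samples, which may in part be technical.

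Mammalian cells make cholesterol from acetyl-CoA through mevalonate, isoprenoids, squalene and lanosterol. The transcription factors SREBP-1 and SREBP-2 are held in the endoplasmic reticulum with their escort SCAP, which INSIG proteins retain when sterols are abundant. When sterols fall, the factors travel to the Golgi, are cut and then activate the enzyme genes. When sterols are abundant, the liver X receptors (LXR) instead switch on export and lower uptake. The brain makes nearly all of its own cholesterol because lipoproteins do not cross the blood-brain barrier, and glioblastoma cells are known for active SREBP-1 and for storage of cholesterol esters.

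Total counts ran from 20321561 to 25299579 in the recurrent tumours, from 25316536 to 39714692 in the primary tumours and from 1358738 to 4158117 in tumour-free brains, while the culture had 65058609. The RNA integrity number (RIN) ran from 8.1 to 8.8 in recurrent tumours and from 7.8 to 8.9 in primary tumours. It ran from 6.1 to 8.9 in controls and was 9.2 in the culture. Per the labels, human graft reads made up 29.4% to 42.7% of the reads in recurrent tumours, 42.5% to 64.4% in primary tumours and 0.33% to 4.9% in controls. The 7 astrocyte and glioblastoma line markers together reached 8725 to 9425 counts per 1000000 of the library total (CPM) in recurrent tumours, 8333 to 10513 in primary tumours, 84.6 to 7817 in controls and 12532 in the culture. Of the 8 microglia and macrophage markers, 7 were at 0 in every tumour, the exception being CSF1R. The same 7 were also at 0 in all 3 control brains. The counted genes are human, and how far rat host cells register in them was not tested. Values of 0 here therefore do not show that microglia were absent. The 8 markers of oligodendrocytes, the cells that make myelin cholesterol, summed to 125 to 204 CPM in recurrent tumours, 164 to 182 CPM in primary tumours, 133 to 285 CPM in controls and 135 CPM in the culture, with MOBP at 0 in all 3 recurrent tumours and the culture. In bulk tissue, fewer cells of a type and less RNA per cell cannot be told apart.

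All 29 genes passed the filter on low counts. Set on a per-length scale, as the mean CPM per kilobase of the longest coding transcript, farnesyl diphosphate synthase (FDPS), which makes the isoprenoid from which squalene is formed, stood highest at 84.3 ± 14.0 in recurrent and 84.4 ± 18.7 in primary tumours (SD, n = 3 each). Squalene synthase (FDFT1), the first enzyme committed to sterols, came next on this scale at 49.0 ± 12.9 in recurrent and 45.6 ± 8.64 in primary tumours. The sterol reductase TM7SF2 was lowest at 1.71 ± 0.399 and 1.40 ± 0.286 in these groups, below the lipoprotein receptor ligase MYLIP at 2.29 ± 0.885 and 3.30 ± 0.415. SREBF1 and SREBF2 differed by less than their SD on this scale, at 23.7 ± 1.18 and 23.5 ± 4.01 in recurrent tumours and 18.0 ± 3.13 and 18.5 ± 4.33 in primary tumours. With the median length of the coding transcripts in place of the longest, FDPS was again highest at 104.1 and 104.2 in recurrent and primary tumours, while SREBF1 came second at 95.2 and 72.4, so the order below FDPS depends on which transcripts are made.

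Tumours in the brain and the culture of the same line were set side by side to see how the path differed between them. Of the 18 synthesis enzymes, 16 were higher in the tumours than in the culture, with a median log2 ratio of 0.76 between the tumour mean and the culture. Over the 13768 genes of this comparison 52.1% were higher in the tumours and the median was 0.02. The culture lay below all 6 tumours for 12 of the 18 enzymes, where 27% of all genes did so. These ratios are on the log2(CPM + 1) scale with CPM scaled over the 6 tumours and the culture together. The culture is a single library, so the differences have no replicate check on that side and no test was made. The values for recurrent and primary tumours share that library. The sum of the glioblastoma line markers was also higher in the culture, as given above, but not every marker went that way. The log2 ratio of tumours to culture was -0.21 for VIM, -0.76 for CD44, -0.43 for SOX9 and -1.08 for TNC, and 1.68 for GFAP, 1.21 for NES and 2.32 for CHI3L1. The part of residual host reads, depth and line purity in these ratios was not tested.

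**Figure D1:**
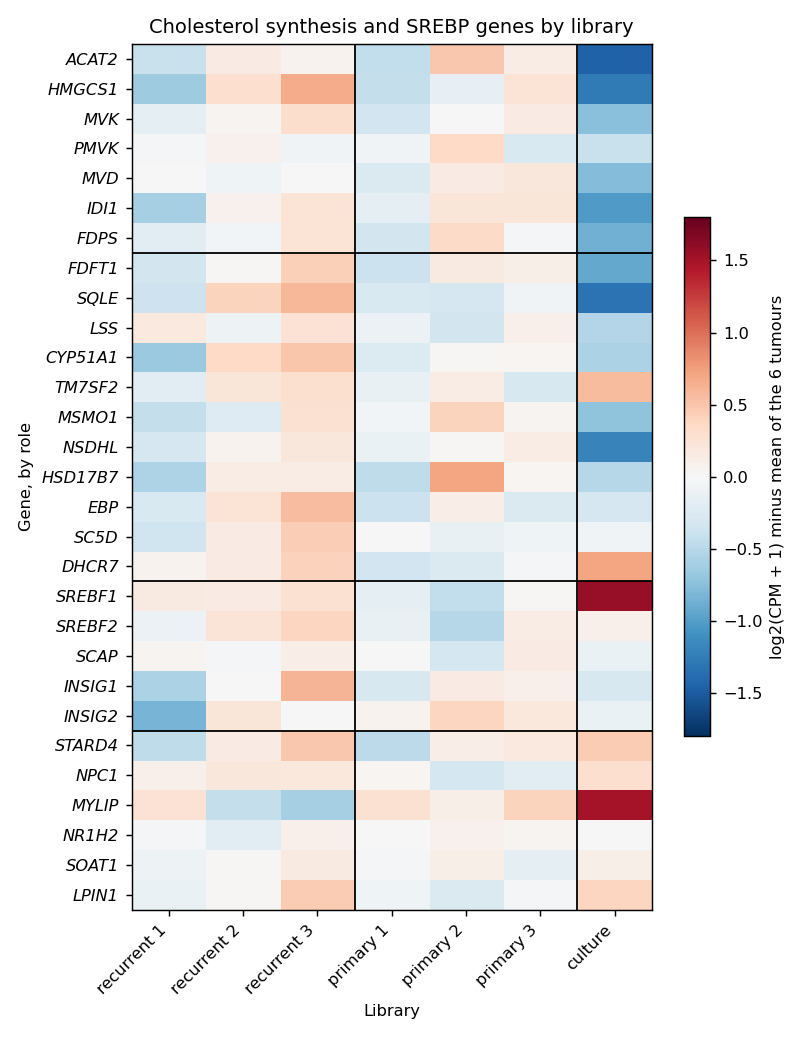
Heat map of the 29 genes (rows, grouped by role with black lines between the mevalonate arm, the squalene and sterol arm, SREBP control, and sterol handling) in the 3 recurrent tumours, the 3 primary tumours and the culture (columns). Colour is log2(CPM + 1) minus the mean of the 6 tumours, with red above and blue below that mean; the culture column is blue for most synthesis enzymes and darkest red for SREBF1 and MYLIP, and recurrent 3 is the reddest tumour column.

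In the mevalonate arm, which turns acetyl-CoA into isoprenoids, all 7 enzymes were higher in the tumours and the culture lay below every tumour for each of them. ACAT2, the cytosolic thiolase that joins acetyl-CoA units, ranged from 47.5 to 91.6 CPM over the tumours with a median of 69.9, against 23.2 CPM in the culture. HMGCS1, the HMG-CoA synthase of the next step, ranged from 43.9 to 110.6 CPM in the tumours with a median of 72.4, against 28.2 CPM in the culture. The log2 ratio to the culture was 1.41 in recurrent and 1.56 in primary tumours for ACAT2, and 1.48 and 1.18 in those groups for HMGCS1. IDI1, the isomerase that makes the active isoprenoid unit, also passed 2-fold, at 17.2 to 32.0 CPM in the tumours (median 29.6) against 12.7 CPM in the culture. The kinases MVK (log2 ratio 0.76) and PMVK (0.41), the decarboxylase MVD (0.78) and FDPS (0.88) were higher in every tumour but short of 2-fold on average.

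In the squalene and sterol arm, 9 of 11 enzymes were higher in the tumours. SQLE, the squalene epoxidase that is a rate-limiting step of this arm, ranged from 48.0 to 95.3 CPM in the tumours with a median of 55.7, against 24.3 CPM in the culture. Its log2 ratio to the culture was 1.59 in recurrent and 1.12 in primary tumours. NSDHL, which removes the methyl groups of lanosterol's ring with MSMO1, ranged from 17.8 to 25.9 CPM with a median of 22.9, against 9.12 CPM in the culture. These 2 were the only enzymes of the arm past 2-fold, and the ratio was 0.94 for FDFT1, 0.75 for the methyl oxidase MSMO1 and 0.54 for lanosterol synthase (LSS), each with the culture below all tumours. For the demethylase CYP51A1 (0.63), the reductase HSD17B7 (0.57), the isomerase EBP (0.34) and the desaturase SC5D (0.08) the culture fell within the range of the tumours. The counts of CYP51A1, HSD17B7 and EBP were not whole numbers in 8, 6 and 7 libraries (tolerance 0.01), meaning that reads shared with other loci were divided by a model there. The reductases DHCR7 and TM7SF2 lay the other way. DHCR7, which makes cholesterol from its last precursor, ranged from 33.8 to 57.6 CPM in the tumours with a median of 43.7, against 70.9 CPM in the culture. TM7SF2 ranged from 2.00 to 3.47 CPM (median 2.69) against 4.46 CPM in the culture, and for both genes the culture lay above all tumours.

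**Figure D2:**
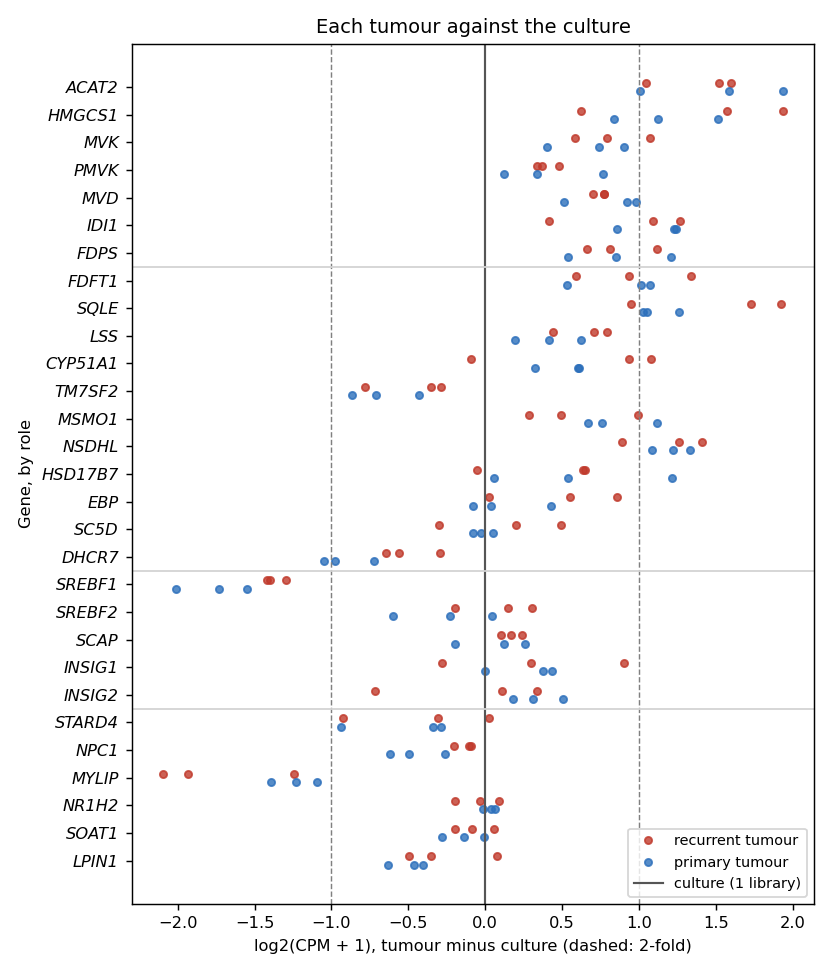
Each tumour's log2(CPM + 1) minus that of the culture (horizontal axis) for each gene (vertical axis, grouped by role); red points are recurrent tumours, blue points primary tumours, the solid line at 0 is the culture and dashed lines mark 2-fold. All points of the 7 mevalonate genes lie right of the culture, while those of DHCR7, TM7SF2, SREBF1, NPC1 and MYLIP lie left of it.

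Among the 5 control genes, SREBF1 alone stood apart from the culture. SREBF1 (chromosome 17, 17810399 to 17837002, minus strand, GRCh38), which encodes SREBP-1, the factor that leans towards fatty acid genes, ranged from 64.6 to 107.1 CPM in the tumours with a median of 93.9, against 263.7 CPM in the culture. Its log2 ratio to the culture was -1.37 in recurrent and -1.75 in primary tumours, and the culture lay above every tumour. SREBF2 (chromosome 22, 41833079 to 41907308, plus strand), which encodes SREBP-2, the main activator of the cholesterol genes, ranged from 77.8 to 146.4 CPM in the tumours with a median of 112.8, against 118.5 CPM in the culture, inside that range. The count of SREBF1 divided by that of SREBF2 within a library, which needs no scaling between libraries, was 0.962, 0.748 and 0.732 in the recurrent tumours, 0.780, 0.830 and 0.732 in the primary tumours and 2.23 in the culture. All 6 tumours thus lay close together and below the culture. SCAP ranged from 35.9 to 49.7 CPM in the tumours against 41.3 CPM in the culture. INSIG1, itself a target of SREBP and so a feedback gene, ranged from 47.7 to 109.9 CPM against 58.3 CPM, and INSIG2, which is not driven by SREBP in the same way, from 11.1 to 27.1 CPM against 18.8 CPM, each with the culture within the tumour range.

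Of the 6 genes that handle sterols or respond to them, none was higher in the tumours on average. MYLIP (also called IDOL), an LXR-induced ligase that sends lipoprotein receptors to degradation, ranged from 4.68 to 10.4 CPM in the tumours with a median of 8.77, against 23.3 CPM in the culture. Its log2 ratio was -1.71 in recurrent and -1.23 in primary tumours, past 2-fold in both groups. NPC1, which exports cholesterol from lysosomes, ranged from 16.9 to 24.9 CPM in the tumours, just under the 26.5 CPM of the culture. The others had the culture within the tumour range, with log2 ratios of -0.42 for the sterol carrier STARD4, -0.36 for the phosphatidate phosphatase LPIN1, -0.10 for SOAT1, which makes cholesterol esters, and -0.01 for NR1H2, the receptor LXR beta. In all, 5 genes of the set were past 2-fold higher in the tumours with the culture outside their range (ACAT2, HMGCS1, IDI1, SQLE and NSDHL) and 2 were past 2-fold lower (SREBF1 and MYLIP), where 3.94% and 5.04% of all genes were. IDI1, at 1.05, lay just inside that limit and FDFT1, at 0.94, just outside it.

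Recurrent and primary tumours were compared to ask what regrowth after ablation changed. No gene of the set passed the edgeR quasi-likelihood test over 15928 genes, with an adjusted p of at least 0.545 for each. The call rate over all genes was 0.00628%, which is 1 gene. At an unadjusted p under 0.05 there were 2 of 29, DHCR7 and SREBF1, where 8.38% of all genes had such a p. DESeq2 and limma-voom called none of the 29 either, with 0.701% and 0% of all genes called. Of the 29 genes, 18 were higher in recurrent tumours and 11 lower. The median of their log2 fold changes was 0.12, where 49% of all genes were higher and their median was -0.01.

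The 6 genes with the smallest p were DHCR7, SREBF1, SQLE, NPC1, MYLIP and EBP. DHCR7 (chromosome 11, 71428193 to 71452868, minus strand) had 44.8, 47.2 and 57.2 CPM in the recurrent tumours, against 33.5, 34.5 and 42.3 CPM in the primary tumours. SREBF1 had 99.0, 96.9 and 106.4 CPM in the recurrent tumours, against 78.0, 62.6 and 89.2 CPM in the primary tumours. NPC1 had 22.8, 24.5 and 24.4 CPM in the recurrent tumours, against 21.7, 16.4 and 18.4 CPM in the primary tumours. For these 3 genes every recurrent tumour lay above every primary tumour, as it did for 7.94% of all genes, and no gene of the set had every recurrent tumour below every primary tumour, as 7.42% of all genes did (15.4% in either direction). The log2 fold change was 0.44 (SE 0.16) for DHCR7, 0.40 (SE 0.15) for SREBF1 and 0.34 (SE 0.16) for NPC1, with edgeR adjusted p of 0.545, 0.572 and 0.591.

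SQLE (chromosome 8, 124998497 to 125022283, plus strand) had 47.8, 82.0 and 94.7 CPM in the recurrent tumours, against 51.0, 49.0 and 59.5 CPM in the primary tumours. Recurrent replicates 2 and 3 were above all primary tumours and recurrent replicate 1 was below them, so the groups overlapped (log2 fold change 0.49, SE 0.22, edgeR adjusted p = 0.591). EBP had 35.9, 51.7 and 64.6 CPM in the recurrent tumours, against 33.0, 46.5 and 36.3 CPM in the primary tumours, again overlapping (0.40, SE 0.22, edgeR adjusted p = 0.641). MYLIP had 9.23, 5.30 and 4.65 CPM in the recurrent tumours, against 9.28, 8.03 and 10.3 CPM in the primary tumours, with recurrent replicate 1 inside the primary range (-0.53, SE 0.29, edgeR adjusted p = 0.641). In both SQLE and MYLIP, recurrent replicate 1 sat with the primary tumours.

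**Figure D3:**
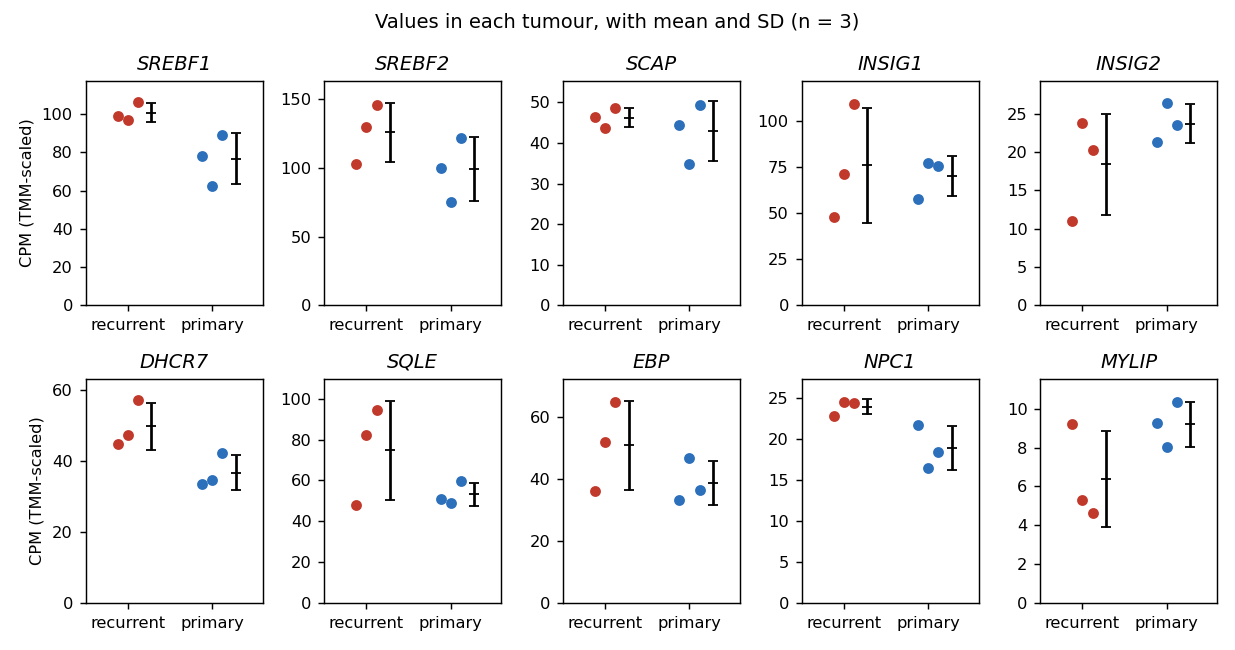
Values of the 5 SREBP control genes and of 5 genes with the smallest p in each tumour, as CPM scaled over the 6 tumours (vertical axes, each starting at 0); recurrent tumours are red and primary tumours blue, in replicate order, and black marks give the mean and SD of 3. The groups do not overlap for SREBF1, DHCR7 and NPC1 and overlap for the other 7 genes.

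The other control genes overlapped between the groups. SREBF2 had 102.9, 129.5 and 145.5 CPM in the recurrent tumours, against 99.9, 75.4 and 121.8 CPM in the primary tumours (log2 fold change 0.35, SE 0.20, edgeR adjusted p = 0.644). SCAP had 46.3, 43.8 and 48.6 CPM in the recurrent tumours, against 44.5, 34.8 and 49.5 CPM in the primary tumours, where the lowest value of the 6 belonged to primary replicate 2. Both groups of SCAP values overlapped, as did those of SREBF2. INSIG1 (chromosome 7, 155297776 to 155310235, plus strand) had 47.5, 71.0 and 109.2 CPM in the recurrent tumours, against 57.6, 76.9 and 75.7 CPM in the primary tumours, so that recurrent tumours held both the lowest and the highest value. INSIG2 had 11.0, 23.8 and 20.3 CPM in the recurrent tumours, against 21.3, 26.3 and 23.5 CPM in the primary tumours, with recurrent replicate 1 far below the rest. The log2 fold changes were 0.11 (SE 0.16) for SCAP, 0.12 (SE 0.26) for INSIG1 and -0.36 (SE 0.25) for INSIG2, with edgeR adjusted p of 0.854, 0.909 and 0.688. The ratio of INSIG1 to INSIG2 counts was 4.31, 2.98 and 5.39 in the recurrent tumours, against 2.71, 2.92 and 3.23 in the primary tumours (p = 0.2 in an exact permutation test, two-sided, whose smallest possible p is 0.1). The SREBF1 to SREBF2 ratios of the 2 tumour groups overlapped (p = 0.9 in the same exact permutation test).

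The 3 genes that stood highest over the culture beside SQLE did not separate the tumour groups. ACAT2 had 48.8, 71.3 and 67.9 CPM in the recurrent tumours, against 47.0, 88.9 and 71.2 CPM in the primary tumours. HMGCS1 had 43.7, 84.8 and 109.9 CPM in the recurrent tumours, against 50.5, 60.7 and 81.9 CPM in the primary tumours. NSDHL had 17.7, 23.0 and 25.7 CPM in the recurrent tumours, against 20.2, 21.9 and 24.4 CPM in the primary tumours. Within the recurrent group replicate 1 was the lowest and replicate 3 the highest for HMGCS1 and NSDHL. The log2 fold change was -0.14 (SE 0.23) for ACAT2 and 0.30 (SE 0.30) for HMGCS1, with edgeR adjusted p of 0.870 and 0.775. For the 16 remaining genes the groups overlapped, and the log2 fold changes ran from -0.25 for HSD17B7 to 0.29 for TM7SF2. By role the median was -0.02 over the 7 mevalonate enzymes, 0.22 over the 11 enzymes of the sterol arm, 0.12 over the 5 control genes and 0.12 over the 6 handling genes.

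**Figure D4:**
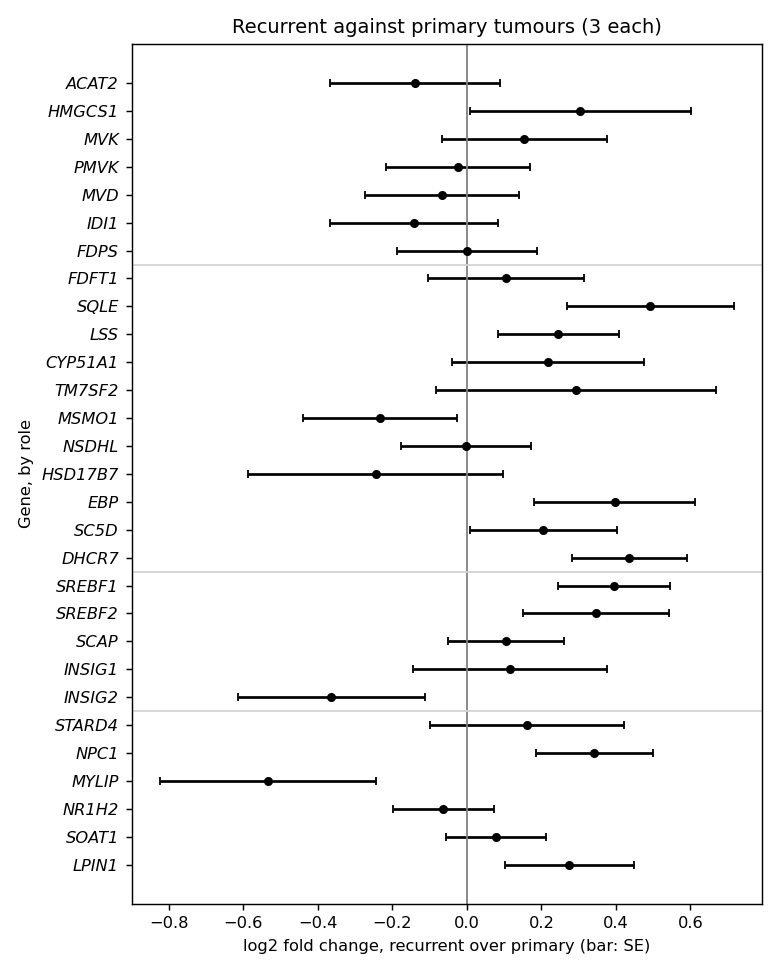
Log2 fold change of recurrent over primary tumours (horizontal axis, 3 tumours in each group) for each gene (vertical axis, grouped by role), with bars of 1 SE from edgeR. The points run from -0.53 for MYLIP to 0.49 for SQLE, and no gene passed the adjusted threshold.

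Single tumours set these genes apart more than the groups did. Recurrent replicate 3 held the highest value of the 6 tumours for 19 of the 29 genes, while it was highest for 15.7% of all tested genes. Recurrent replicate 1 was the lowest for 10 of the 29 and primary replicate 1 for 8, while these tumours were lowest for 15.7% and 9.94% of all genes, and neither was the highest for any gene of the set. The mean deviation of the 18 enzymes from the 6-tumour average was -0.29, 0.11 and 0.32 on the log2(CPM + 1) scale in the recurrent tumours, against -0.25, 0.08 and 0.03 in the primary tumours. The recurrent group thus held both ends of the range and the primary group lay between them. The sterol arm showed the widest span, from -0.29 in recurrent replicate 1 to 0.38 in recurrent replicate 3, where 9 of its 11 enzymes were at their highest. The 6 handling genes spanned from -0.05 to 0.14 over the tumours. Recurrent replicate 1 also had the lowest graft percentage (29.4%) of the 6 tumours, and primary replicate 1, which was nearly as low for the enzymes, had 42.5%. The part of graft content in this pattern was not tested. Leaving out recurrent replicate 3 brought the median log2 fold change of the 29 genes to -0.01, and leaving out recurrent replicate 1 brought it to 0.27. A fit that included each library's graft percentage gave 0.27. Library names begin with IL in all primary tumours and recurrent replicate 1 and with NL in recurrent replicates 2 and 3 only. Within the IL libraries, where recurrent replicate 1 alone faces the 3 primary tumours, the median was -0.15. There 8 of the 29 genes (27.6%) were higher in the recurrent tumour, where 49.4% of all genes were. Of the 29, 12 (41.4%) had turned sign, where 24.4% of all genes had. Among these, SQLE was at -0.15, EBP at -0.10, HMGCS1 at -0.56, INSIG1 at -0.56, CYP51A1 at -0.61 and FDFT1 at -0.29, and MYLIP was at 0.00015. DHCR7 (0.28), SREBF1 (0.37) and NPC1 (0.27) had the same sign as before. The NL libraries hold no primary tumour. The labels do not say what the prefixes stand for.

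**Figure D5:**
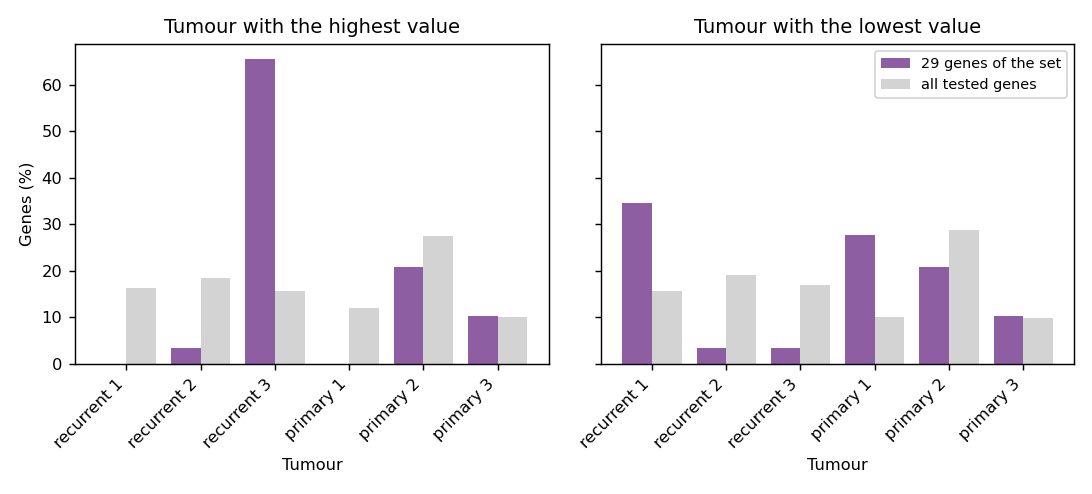
Share of genes (vertical axis, percent) for which each tumour (horizontal axis) had the highest value (left panel) or the lowest value (right panel) of the 6 tumours, for the 29 genes (purple) and for all 15928 tested genes (grey). Recurrent 3 takes 65.5% of the highest values of the set against 15.7% over all genes.

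Of the 2 endothelial and 4 neuronal markers tested, none was called by edgeR between the tumour groups, where 1 of 15928 genes was. The 7 endothelial markers summed to 3.44 to 7.18 CPM in recurrent tumours, 1.85 to 3.44 CPM in primary tumours and 3.90 CPM in the culture, with CLDN5 at 0 in all tumours. The 8 neuronal markers summed to 22.2 to 22.6 CPM in recurrent tumours and 16.0 to 20.3 CPM in primary tumours. They summed to 58.2 CPM in the culture, above every tumour, and to 85.1 to 387.9 CPM in controls, above the culture. In the culture SYT1 stood at 31.0 CPM and GAD1 at 21.2 CPM, as scaled with the tumours, and RBFOX3 was at 0. Of the 4 neuronal markers tested, SYT1 (log2 fold change 0.57) and RBFOX3 (2.08) were higher in recurrent tumours and SNAP25 (-0.58) and GAD1 (-0.06) lower. Their part in the differences of the 29 genes was not tested.

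Neighbouring pathways were read from lists written from textbook knowledge. None of their tested genes passed edgeR's adjusted threshold between recurrent and primary tumours. All 9 tested genes of fatty acid synthesis, the targets of SREBP-1, were higher in recurrent tumours, with 0.26 as the median log2 fold change, where 49% of all genes were higher, and the malic enzyme ME1 was too low to test. Within the IL libraries 5 of these 9 were higher and 4 lower, where 49.4% of all genes were higher, and ELOVL6 was at 0.22. The elongase ELOVL6 stood at 96.1 ± 22.4 CPM in recurrent and 60.5 ± 3.52 CPM in primary tumours (SD, n = 3 each; log2 fold change 0.67, SE 0.18, edgeR adjusted p = 0.448), and without the filter on low counts it passed, with an edgeR adjusted p of 0.00634. Over all genes, the run without the filter called 227 higher and 184 lower, against 0 and 1 with it. Fatty acid synthase (FASN) stood at 257 ± 14.7 CPM in recurrent and 189 ± 59.0 CPM in primary tumours (0.44, SE 0.22, edgeR adjusted p = 0.617). Against the culture these 9 genes had a median log2 ratio of -0.08 and none was past 2-fold, beside the ratio of -1.55 for SREBF1 itself.

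Of the 8 genes that process SREBP or degrade sterol-regulated proteins, 2 were higher in recurrent tumours (median -0.05). SPRING1, which keeps the SREBP protease active, stood at 69.1 ± 3.03 CPM in recurrent and 56.2 ± 7.82 CPM in primary tumours (SD, n = 3 each; edgeR adjusted p = 0.598), and the site-2 protease MBTPS2 at 55.6 ± 8.14 and 45.7 ± 2.34 CPM in those groups (edgeR adjusted p = 0.623). In the isoprenoid branch, which feeds protein prenylation, dolichol and ubiquinone, 4 of 12 were higher (median -0.04), with the farnesyltransferase subunit FNTA at -0.43 (SE 0.14, edgeR adjusted p = 0.521) and PGGT1B, a subunit of the enzyme that attaches geranylgeranyl groups, at -0.24 (SE 0.14, edgeR adjusted p = 0.651). Of 16 tested genes of sterol trafficking, uptake and oxysterols, 7 were higher (median -0.08). The cholesterol ester hydrolase NCEH1 stood at 65.7 ± 7.14 CPM in recurrent and 44.7 ± 0.923 CPM in primary tumours (0.56, SE 0.13, edgeR adjusted p = 0.406), and the lipoprotein receptor SCARB1 at 33.9 ± 2.33 and 43.2 ± 2.28 CPM in those groups (-0.35, SE 0.13, edgeR adjusted p = 0.572). SOAT2 and CH25H in this list were too low to test.

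Control replicates 1 and 2, with 0.33% and 0.55% graft reads, show how much signal the 29 genes have with little graft. Control replicates 1 and 2 held 50 and 188 counts over the 29 genes together, with 14 and 5 genes at 0 and no gene above 20 counts. The smallest count of any of these genes in a tumour was 43. These 2 controls had 1358738 and 1702194 counts in all, against at least 20321561 in each tumour, so their raw counts do not compare levels. Control replicate 3, with 4.9% graft reads, held 3564 counts over them. Structural small RNAs took 92.6%, 89.8% and 31.7% of the counts in the controls, so levels were also set against the total without them. The median of the 29 genes was then 9.98, 34.4 and 40.1 CPM in control replicates 1, 2 and 3. In control replicate 2, SQLE stood at 103.2 CPM, from 18 counts, against 53.6 to 105.7 CPM in the tumours. CYP51A1 was at 0 there, against 56.5 to 127.0 CPM in the tumours. On that scale SREBF2 stood at 132.7 CPM in control replicate 3 and INSIG1 at 59.2 CPM, within the tumour range as were 18 of the 29 genes, where 43.1% of all genes were. The glioblastoma line markers named above reached 7817 CPM of the library total in that same control. The part of its graft reads in the values of the 29 genes was not tested. Control replicate 3 also held most of the control counts over the 29 genes. The comparison of tumours with controls is therefore not one with graft-free tissue.

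Between tumours and controls edgeR called 1 of the 29 genes higher in tumours and none lower, where 0.927% of all genes were called higher and 4.5% lower, and 3 of 29 had an unadjusted p under 0.05, where 19.3% of all genes did. The called gene was TM7SF2, at 2.04 to 3.45 CPM of the library total in the tumours and at 0 in all 3 controls. That is at least 6.45-fold higher against a floor of 3 counts over the controls (0.416 CPM), or at least 3.10-fold without the structural small RNAs in the totals (edgeR adjusted p = 0.0400). The call was lost when any of 8 of the 9 libraries was left out, the exception being control replicate 2, with edgeR adjusted p up to 0.453 without control replicate 3. In that last fit a different gene of the set, NR1H2, was called higher in tumours (log2 fold change 2.35, edgeR adjusted p = 0.0396), against 0.44 and an edgeR adjusted p of 0.479 with all libraries. Over all genes, the fit without control replicate 3 called 1264 higher in tumours, against 152 with all libraries. NR1H2 had 0 and 2 counts in control replicates 1 and 2 and 114 in control replicate 3, and it is named here after its values were seen.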

How the data were processed

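The authors deposited estimated counts per gene from Salmon 1.10.3, not normalised, for a reverse-stranded total RNA library kit, per the labels' protocols and the submitters' processing notes. STAR, DESeq2 and GRCh38 are also named there, with no roles stated (annotation release not given in the sources used here). Counts were rounded to whole numbers. The test between recurrent and primary tumours was edgeR 4.0.16 (quasi-likelihood test, TMM scaling, filterByExpr with a minimum count of 10, Benjamini-Hochberg threshold 0.05, two-sided), and tumours and controls in the same way with the 3 groups in the fit. Against the single culture, log2(CPM + 1) values were compared without a test, and past 2-fold means a ratio over 2 with the culture outside the range of the 6 tumours. Gene positions, lengths and the 5706 structural small RNA genes came from GENCODE 29 on GRCh38, where 58261 of 62754 genes matched. CPM for the tumour comparison was scaled over the 6 tumours and for the culture over 7 libraries. Floors of 3 counts cover counting error only. Alternatives were DESeq2 1.42.0, limma-voom (limma 3.58.1), other scalings, no filter, another pseudocount (0.1 CPM) and fold (1.5), the graft percentage or the name prefix as covariate, and leaving out each library. Values are given in full for the 6 genes with the smallest p, the 5 control genes and the 6 with the largest ratio to the culture, and for the 2 smallest p of each neighbouring list. The genes, roles and lists were chosen with earlier results of these data known. No sequences are shown.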

Additional observations from a re-analysis of the deposited data

Results flagged for a closer look

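Over the 6 tumours, 2 of the 29 genes had a single tumour far from the others beyond the critical value of Dixon's test on the log2(CPM + 1) scale. For INSIG2 the gap between recurrent replicate 1, the lowest, and the next tumour was 0.694 of the whole range. For SCAP the gap between primary replicate 2, the lowest, and the next tumour was 0.652 of the range. Primary replicate 2 had the lowest RIN of the 6 tumours (7.8). It was the lowest tumour for 28.7% of all tested genes and the highest for 27.5%. The part of RNA quality in these 2 cases was not tested. With 29 genes tested, chance flags about 1 in 20 such groups.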

How the results depend on the processing

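No gene of the set was called between recurrent and primary tumours under any alternative run. Over all genes, 0 were called higher and 1 lower, against 65 and 42 with DESeq2, 227 and 184 without the low-count filter, 1 and 3 with the name prefix as covariate, and, of the lower ones, 0 with the graft percentage and 0 with limma-voom. Leaving out 1 tumour gave 0 to 19 higher and 0 to 4 lower. The median log2 fold change of the 29 genes (0.12) was -0.15 with the prefix and -0.011 to 0.27 when 1 tumour was left out. ACAT2 turned to 0.083 with the graft percentage, and NSDHL to 0.014 with library totals, 0.19 with the graft percentage and 8.55e-05 with DESeq2. When 1 tumour was left out, ACAT2 ran from -0.35 to 0.081, NSDHL from -0.13 to 0.13, SCAP from -0.027 to 0.22, INSIG1 from -0.25 to 0.36 and HMGCS1 from -0.011 to 0.59, and the cause was not tested. Those that kept their direction but moved by over 1.5 times included SQLE (0.28 to 0.73), EBP (0.17 to 0.59), SREBF2 (0.18 to 0.52), MYLIP (-0.89 to -0.36), INSIG2 (-0.61 to -0.11) and FASN (0.23 to 0.68). With the name prefix, 12 of the 29 genes turned sign. Against the culture, 10 genes were past 1.5-fold higher, where 5 were past 2-fold, and 4 to 6 when 1 tumour was left out. Tumours against controls gave 152 genes higher and 737 lower, against 348 and 1777 without the filter and 177 and 248 with library totals. With library totals the median log2 fold change of all genes was 1.74 and that of the set 2.03, in place of 0.21 and 0.36. Leaving out 1 library gave 53 to 1264 higher and 315 to 1380 lower, and 0 to 1 called genes of the set (TM7SF2 without control replicate 2, NR1H2 without control replicate 3), while no filter gave 2. No paired analysis was possible because the labels give no replicate numbers, and those used here only name the libraries. Recurrent replicates 1, 2 and 3 are libraries IL66B, NL70B and NL71B, and primary replicates 1, 2 and 3 are IL67B, IL68B and IL69B. Control replicates 1, 2 and 3 are IL64B, N168B and N269B. The controls held 1358738 to 4158117 counts, with a floor of 3 counts at 0.721 to 2.21 CPM.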
